A study of Mus musculus with 13 samples.

Results

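Vldlr, Lrp1, Lrp2, Lrp8 and Lrp10 are receptors of the LDL receptor family, and they are described here together with 4 genes that act beside them. These are the chaperone gene Lrpap1, the sorting receptor genes Sorl1 and Sort1, and Mylip, which encodes a ubiquitin ligase. The 9 genes were taken by symbol from a table of 20971 genes, and all 9 were found there. The RNA came from cortex of 13 C57BL/6 mice at 6 months of age: 7 APPPS1;Apoe-/- mice and 6 APPPS1 mice. By the labels both groups carry the APPPS1-21 transgenes, mutant human amyloid precursor protein and presenilin driven in neurons by the Thy1 promoter, and no group is labelled as lacking them. The comparison asks how the receptors responded when Apoe, one of their main ligands in brain, was absent.

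Receptors of this family bind lipoproteins, proteases and signalling proteins at the cell surface, take them into endosomes and usually return to the surface. In brain, astrocytes and microglia secrete lipid-loaded apolipoprotein E, which neurons and glia take up through several of these receptors. Vldlr and Lrp8 also receive the extracellular protein reelin and pass its signal into neurons. The receptor-associated protein encoded by Lrpap1 keeps newly made receptors from binding ligands in the endoplasmic reticulum. The ligase encoded by Mylip, also called IDOL, marks receptors of this family for lysosomal breakdown, and its transcription is known to be raised by the sterol-sensing liver X receptors (LXR).

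Mylip was the single gene among the 8 tested members whose mRNA differed between APPPS1;Apoe-/- and APPPS1 cortex at the threshold used. Mylip fell by 0.33 on the log2 scale (95% interval -0.52 to -0.15, adjusted p = 0.0286). Lrp10, Lrp1, Lrp8, Vldlr and Lrpap1 had changes of -0.15, -0.12, -0.12, -0.050 and -0.0071, and Sorl1 and Sort1 of 0.050 and 0.016, none past the threshold. Lrp2 was nearly absent from all libraries and was not tested. Changes are APPPS1;Apoe-/- minus APPPS1 on log2(RPKM + 0.5), where RPKM is the read number divided by gene length and library depth. They understate the change of weak genes. Adjusted p-values come from limma over the 13343 genes that averaged 0.5 RPKM or more. The call rule, an adjusted p below 0.05, took 8.23% of those genes, 633 lower (4.74%) and 465 higher (3.48%), against 1 lower of the 8 members tested. Under quantile normalization the split of all calls was 608 lower and 687 higher. The median change was -0.083 over the 8 members and -0.0077 over all genes tested. The call of Mylip ended in a fit without APPPS1;Apoe-/- replicates 2 and 5 (-0.25, adjusted p = 0.103), where 5.07% of all genes were called, and in a fit with a covariate for log2 alignments (-0.23, adjusted p = 0.292).

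These 2 replicates stood apart from the other libraries, and their values go against the transgene part of their label, so they are APPPS1;Apoe-/- by label only. App, to which transgene reads can align, was at 106 and 116 RPKM in them, while the other 11 libraries ran from 176 to 217 RPKM. Thy1, whose promoter drives the transgenes, was at 52.2 and 56.9 RPKM there and at 172 to 245 RPKM elsewhere. Apoe itself was at 4.01 to 6.35 RPKM in the APPPS1;Apoe-/- libraries and 463 to 670 RPKM in the APPPS1 libraries, so each library matched the Apoe part of its label. Alignments numbered 18455493 to 34538031 per library in the APPPS1;Apoe-/- group and 28402328 to 77005806 in the APPPS1 group. The cortical neuron genes Slc17a7 and Tbr1 were at 3.76 RPKM or more in every library, and Slc17a7 was called lower, with means of 35.6 RPKM in APPPS1;Apoe-/- and 47.7 RPKM in APPPS1 (-0.42, adjusted p = 0.0245). Of 8 oligodendrocyte markers 3 were called higher, with sums of 936 to 1487 RPKM in APPPS1;Apoe-/- and 832 to 1168 RPKM in APPPS1 libraries. Of 8 astrocyte markers 1 was higher and 2 lower. Their sums were 1122 to 1291 RPKM in APPPS1;Apoe-/- and 1056 to 1171 RPKM in APPPS1 libraries. Among 8 striatal neuron markers 1 was called higher, 6 had an unadjusted limma p under 0.05, and the median change was 0.46. Of 8 endothelial markers 1 was higher and 0 lower, with a median change of -0.10. Of 4 tested ependymal markers 1 was higher. Without replicates 2 and 5, and with the alignments covariate, limma called 0 markers of oligodendrocytes, astrocytes and cortical excitatory neurons. Of the striatal markers 0 and 3 were then higher. Of the endothelial markers 1 was higher and 1 lower without those replicates, and 0 were called with the covariate. The part of such tissue differences in the results was not tested. By Xist and Y-linked genes 5 APPPS1;Apoe-/- and 5 APPPS1 libraries were female. In bulk tissue, fewer cells of a type and less RNA per cell cannot be told apart.

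The promoter of Mylip is shown because it is the only member whose mRNA passed the test. RefSeq's window on GRCm38.p6 covers 250 bases before to 50 after the start of the gene, at chr13:45389492-45389791 on the plus strand. Capitals mark a GC box (GGGCGG, the core bound by Sp1) at position -44 and a TATA box (TATAAA) at position -32, counted from the start of the gene.
Mylip: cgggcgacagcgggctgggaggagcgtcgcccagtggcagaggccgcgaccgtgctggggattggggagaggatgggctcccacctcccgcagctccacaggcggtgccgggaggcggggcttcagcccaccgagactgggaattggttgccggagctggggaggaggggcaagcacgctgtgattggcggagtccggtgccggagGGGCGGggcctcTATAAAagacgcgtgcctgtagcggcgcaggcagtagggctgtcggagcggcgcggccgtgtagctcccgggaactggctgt
Both strands were searched. Over the 32851 promoters of the table, which include several for some genes, the GC box was found in 35.7% and the TATA box in 13.6%. The nuclear receptor site AGGTCA, of which LXR elements hold a pair, was found in 16.3% of the promoters. The window of Mylip did not hold it, and among the members it occurred in 1 window of Lrp8. Only these exact letters within each window of 300 bases were searched, so variant or more distant sites would be missed. Even over all promoters, an exact pair spaced by 4 bases was found in only 0.015%. Of the windows listed for 8 members, Sort1 having no entry, that of Mylip alone held TATAAA. The Mylip window was 71.0% G and C, against a median of 52.7% over all promoters. Lrpap1 had 5 GC boxes in its window and Lrp2 had 2, while Lrp1, Vldlr and Sorl1 had 1 each, for Vldlr and Sorl1 in 1 of 2 windows.

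Mylip is a gene of 2 annotated transcripts at chr13:45389742-45412022 (plus strand, mm10, GENCODE mouse annotation, as for all genes here). Its lowest, median and highest values were 1.81, 2.29 and 2.92 RPKM in the 7 APPPS1;Apoe-/- libraries, against 2.45, 2.996 and 3.39 RPKM in the 6 APPPS1 libraries. In all, 6 of the 7 knockout libraries lay below every APPPS1 library, and the groups overlapped only through APPPS1;Apoe-/- replicate 3, at 2.92 RPKM. The means were 2.26 ± 0.366 RPKM (SD, n = 7) in APPPS1;Apoe-/- and 2.96 ± 0.313 RPKM (SD, n = 6) in APPPS1. The change of -0.33 ± 0.088 (SE) was larger in absolute size than that of 94.0% of all genes tested, and a two-sided exact permutation of the genotype labels gave an unadjusted p of 0.00524. Left out singly, APPPS1;Apoe-/- replicate 2 or 5 ended the call (adjusted p = 0.0578 and 0.0522), as did APPPS1 replicate 1, 4 or 6 (adjusted p = 0.0601, 0.0517 and 0.0719). In female libraries alone the change was -0.42 (adjusted p = 0.0207).

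The lowest Mylip values of all 13 libraries were those of the low-App libraries, 1.81 RPKM (replicate 5) and 1.90 RPKM (replicate 2). Without them the 5 remaining knockout libraries lay between 2.18 and 2.92 RPKM, and the 95% interval of the change, -0.42 to -0.071, stayed below 0 although the adjusted p missed the threshold. With the alignments covariate that interval was -0.46 to 0.0066. Microglia markers moved with Mylip between the groups. The summed level of 8 microglia markers was 146 to 254 RPKM in the APPPS1;Apoe-/- libraries and 291 to 347 RPKM in the APPPS1 libraries, lowest in the same replicates 2 and 5, and 4 of the 8 were called lower. Without those replicates the lowest APPPS1;Apoe-/- sum was 232 RPKM, and 3 markers were lower, while 0 of 8 were called by limma with the alignments covariate. Oligodendrocyte marker sums were 1317 and 1487 RPKM in replicates 2 and 5, and 832 to 1168 RPKM in the APPPS1 libraries. After each group's mean was subtracted, the mean log2 level of the microglia markers had r = 0.491 with Mylip. That of the oligodendrocyte markers had r = -0.599, and these were the highest and lowest values of all marker lists. The part of either list in the Mylip result was not tested. Depth was fitted only as the alignments covariate, and alignments ran lower in the APPPS1;Apoe-/- group, with ranges that overlapped. The covariate fit can therefore tell depth and genotype apart only in part. The SE of the Mylip change was 0.088 without the covariate and 0.109 with it.

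**Figure D1:**
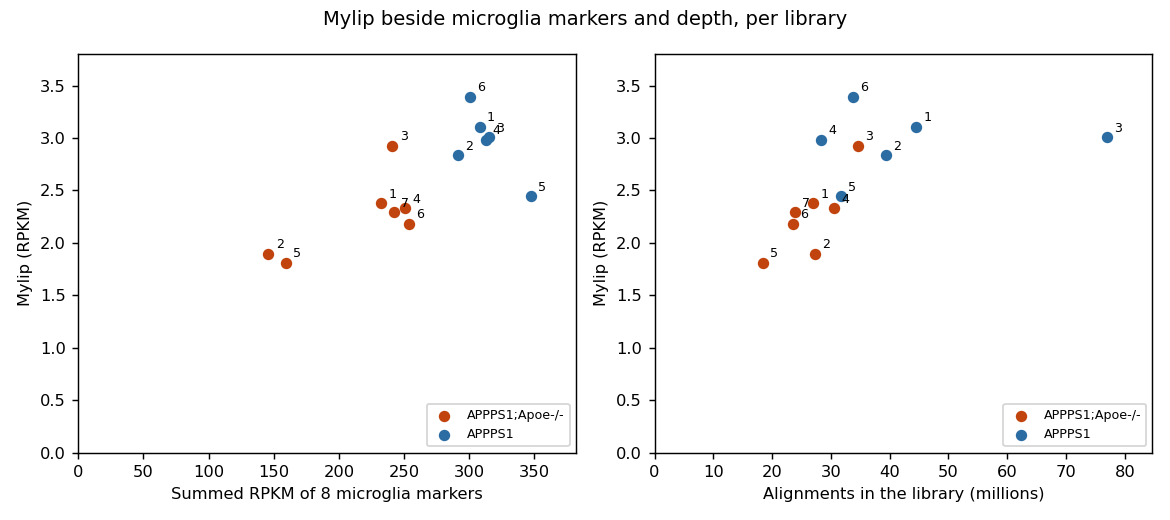
Mylip (RPKM, vertical axis) in the 13 libraries against the summed RPKM of 8 microglia markers (left) and the number of alignments (right); APPPS1;Apoe-/- in orange, APPPS1 in blue, each point with its replicate number. APPPS1;Apoe-/- replicates 2 and 5 are lowest in Mylip and in the microglia sum, and all APPPS1;Apoe-/- libraries have a microglia sum of at most 254 RPKM, below the APPPS1 libraries.

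After each group's mean was subtracted, the tested genes with the highest Pearson correlation to Mylip over 13 libraries were Il1a, Cd33 and Ptpre. Il1a, which encodes the cytokine interleukin 1 alpha, had r = 0.834 and a Spearman rho of 0.808. Cd33, which encodes an inhibitory receptor of myeloid cells, had r = 0.825 and rho = 0.648, and Ptpre, a phosphatase gene, r = 0.817 and rho = 0.742. Without APPPS1;Apoe-/- replicates 2 and 5, r was 0.672, 0.675 and 0.766. Of these 3, Ptpre was called, at 3.95 ± 0.261 RPKM (SD, n = 7) in APPPS1;Apoe-/- and 4.93 ± 0.221 RPKM (SD, n = 6) in APPPS1 (-0.29, adjusted p = 0.00385), a call that ended with the alignments covariate (-0.24, adjusted p = 0.0864). Il1a and Cd33 had adjusted p-values of 0.182 and 0.319. These values are the highest picked among all tested genes and are given as a description of libraries that share depth and dissection.

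**Figure D2:**
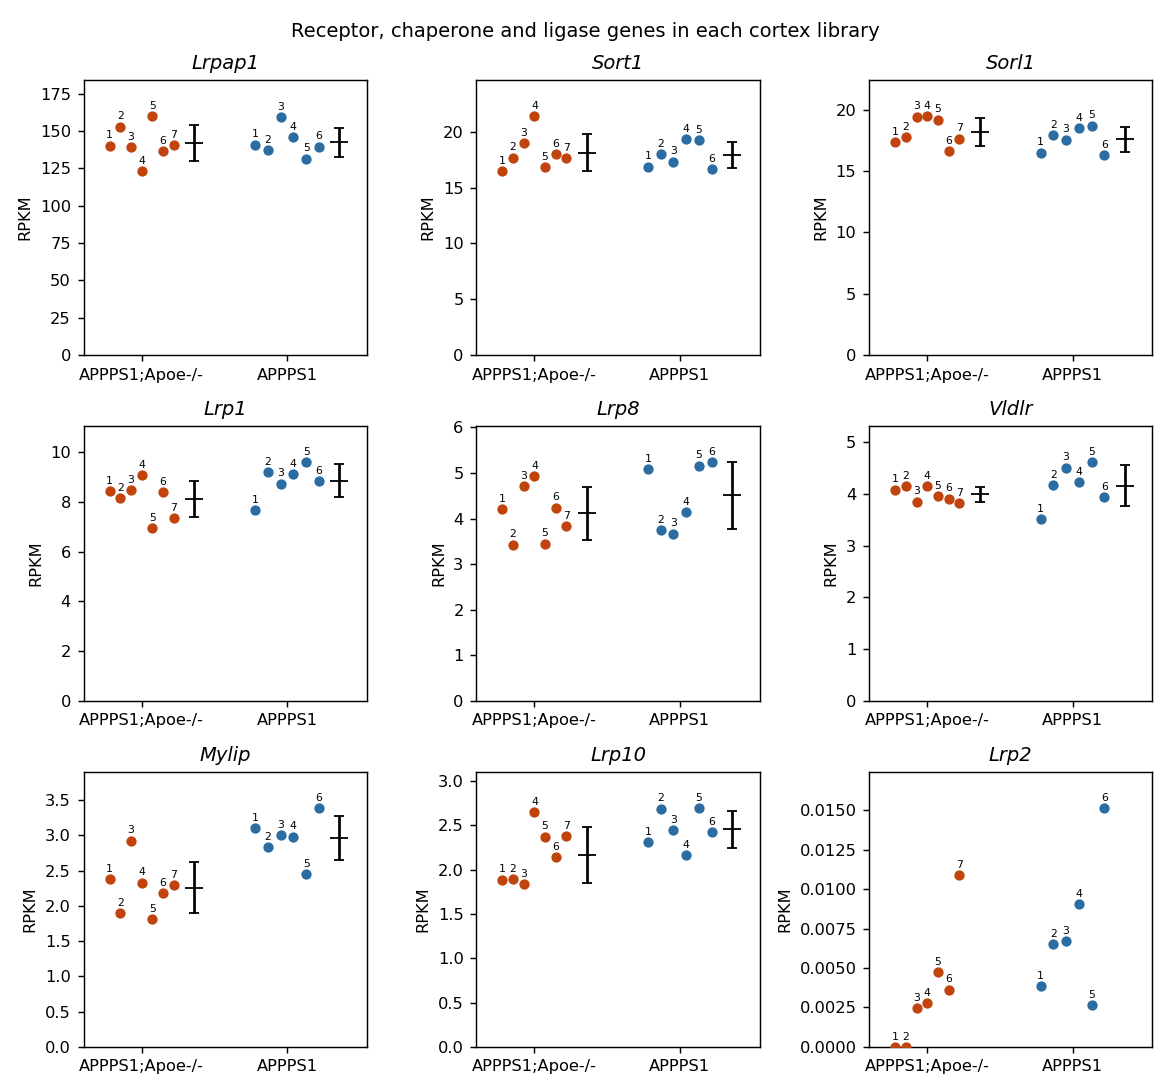
RPKM of the 9 genes, 1 panel per gene and 1 point per library (the number is its replicate), APPPS1;Apoe-/- on the left; the mean and SD of each group (n = 7 and n = 6) are drawn beside the points except for Lrp2, which rests on 28 reads. The groups overlap in every panel, and 6 of the 7 APPPS1;Apoe-/- libraries lie below all APPPS1 libraries for Mylip.

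The levels of the 9 genes, per length, spanned a wide range. Lrpap1 stood highest, at 142 RPKM over all libraries, with 417 genes of the table above it. Sort1 and Sorl1 followed at 18.0 and 17.9 RPKM, then Lrp1 at 8.47 RPKM, Lrp8 and Vldlr at 4.30 and 4.07 RPKM, Mylip and Lrp10 at 2.58 and 2.30 RPKM, and Lrp2 at 0.00526 RPKM. Some neighbours in this order were not separated: Sort1 exceeded Sorl1 in 7 of 13 libraries, Lrp8 exceeded Vldlr in 7 and Mylip exceeded Lrp10 in 9. Between the other neighbours the order held in all 13 libraries.

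Vldlr and Lrp8 are the reelin receptors of the family. Vldlr, at chr19:27216484-27254231 (plus strand), had a lowest, median and highest value of 3.83, 3.96 and 4.16 RPKM in APPPS1;Apoe-/- libraries and of 3.51, 4.21 and 4.63 RPKM in APPPS1 libraries. The knockout libraries all lay within the range of the APPPS1 libraries and closer together, with an SD of 3.46% of the mean in APPPS1;Apoe-/- and 9.71% in APPPS1. Its change was -0.050 ± 0.059 (SE; 95% interval -0.17 to 0.074, adjusted p = 0.642).

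Lrp8, known as apolipoprotein E receptor 2, lies at chr4:107802261-107876840 (plus strand). Its lowest, median and highest values were 3.43, 4.22 and 4.94 RPKM in APPPS1;Apoe-/- libraries and 3.67, 4.62 and 5.25 RPKM in APPPS1 libraries. The groups overlapped widely. Replicates 2 and 5 of the knockout group were the lowest of all 13, at 3.43 and 3.45 RPKM, and the change of -0.12 (95% interval -0.33 to 0.096, adjusted p = 0.511) became -0.028 without them. Of 12 reelin signalling genes, among them those for reelin and its adaptor Dab1, none was called by limma and 2 had an unadjusted p under 0.05. Their median change was -0.042.

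Lrp1 is a large endocytic receptor of neurons, astrocytes and microglia, and it also clears amyloid beta and activated proteases. It lies at chr10:127538161-127621148 (minus strand). Its lowest, median and highest values were 6.96, 8.41 and 9.10 RPKM in APPPS1;Apoe-/- libraries, against 7.67, 8.98 and 9.62 RPKM in APPPS1 libraries. Two-sided exact permutation gave an unadjusted p of 0.0985 for the change of -0.12 (95% interval -0.26 to 0.018, adjusted p = 0.272). Of the knockout libraries 2 of 7 lay below every APPPS1 library, and 3 of 6 APPPS1 libraries exceeded every knockout library.

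Lrp10, a smaller and more distant relative that moves between endosomes and the Golgi apparatus, lies at chr14:54464137-54471497 (plus strand). It had a lowest, median and highest value of 1.83, 2.14 and 2.65 RPKM in APPPS1;Apoe-/- libraries and of 2.17, 2.44 and 2.70 RPKM in APPPS1 libraries. Of the knockout libraries 4 of 7 were below all APPPS1 libraries, while the other 3 lay within their range. Its change was -0.15 ± 0.079 (SE; 95% interval -0.32 to 0.013, adjusted p = 0.240). The exons of Lrp10 share 475 bases with an antisense gene, those of Sorl1 185 and those of Sort1 338, and without stated strand use reads there cannot be assigned to either gene.

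Lrp2, or megalin, is a receptor of absorptive epithelia such as kidney tubule, choroid plexus and ependyma. It lies at chr2:69424340-69586065 (minus strand). Multiplied by the alignments of the library, its values were whole multiples of a single step to within 0.032 of a read, which gave 0 to 3 reads in each APPPS1;Apoe-/- library and 1 to 6 in each APPPS1 library. In sum these were 7 reads (exact Poisson 95% interval 2.81 to 14.4) over 185350744 alignments in APPPS1;Apoe-/- and 21 reads (12.999 to 32.1) over 254914727 alignments in APPPS1. These intervals of raw counts overlap, as do those scaled to the same number of alignments, and all of them cover counting error only. Replicates 1 and 2 of the knockout group had 0 reads, which allows up to 3 in each. Of 8 choroid plexus markers 6 averaged under 0.5 RPKM, while Ttr was at 6.07 to 64.5 RPKM in APPPS1;Apoe-/- and 3.71 to 32.2 RPKM in APPPS1 libraries.

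Sorl1 and Sort1 encode sorting receptors that carry cargo between the Golgi apparatus and endosomes. Sorl1, which carries LDL receptor repeats and binds the amyloid precursor protein, lies at chr9:41964720-42124297 (minus strand). Its lowest, median and highest values were 16.7, 17.8 and 19.5 RPKM in APPPS1;Apoe-/- libraries and 16.3, 17.7 and 18.7 RPKM in APPPS1 libraries. Its 3 highest values came from knockout libraries, and the medians almost coincided. The change was 0.050 ± 0.052 (SE; 95% interval -0.061 to 0.16, adjusted p = 0.599).

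Sort1, sortilin, which binds apolipoprotein E and progranulin, lies at chr3:108284082-108361511 (plus strand). It ran from 16.5 over a median of 17.7 to 21.5 RPKM in APPPS1;Apoe-/- libraries and from 16.7 over 17.7 to 19.3 RPKM in APPPS1 libraries. The medians coincided, and the knockout values were more widely spread. The change was 0.016 ± 0.061 (SE; 95% interval -0.11 to 0.15, adjusted p = 0.900), and it was -0.023 without APPPS1;Apoe-/- replicate 4, the highest library. None of the 3 related genes Sorcs1, Sorcs2 and Sorcs3 was called by limma, and 0 had an unadjusted p under 0.05.

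Lrpap1, at chr5:35091501-35105766 (minus strand), had the smallest change of the 8 genes. Its lowest, median and highest values were 123, 140 and 160 RPKM in APPPS1;Apoe-/- libraries and 131, 140 and 159 RPKM in APPPS1 libraries. The change was -0.0071 ± 0.061 (SE; 95% interval -0.14 to 0.12, adjusted p = 0.956). Within the knockout group Lrpap1 was highest in the low-App replicates 5 and 2, at 160 and 153 RPKM, where Lrp8 and Mylip were lowest. Its sign turned with the alignments covariate (0.010), so it carried no direction.

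**Figure D3:**
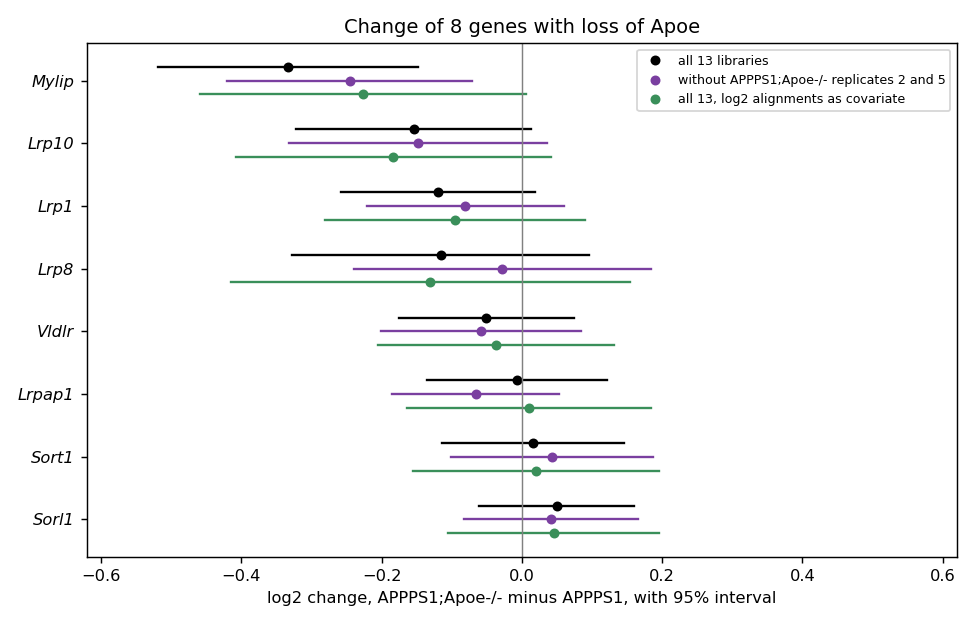
Log2 change of 8 genes, APPPS1;Apoe-/- minus APPPS1 (points), with 95% intervals (lines), over all 13 libraries, without APPPS1;Apoe-/- replicates 2 and 5, and with the covariate for log2 alignments. All intervals include 0 except those of Mylip over all 13 libraries (-0.52 to -0.15) and without both replicates (-0.42 to -0.071).

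Among themselves the members did not vary as a block. After each group's mean was subtracted, correlations over 13 libraries ran from r = -0.757 (rho = -0.681) for Lrp8 with Lrpap1 to r = 0.675 (rho = 0.604) for Sorl1 with Sort1. Lrp1 went with Sort1 (r = 0.661, rho = 0.648) and with Vldlr (r = 0.614, rho = 0.495). Without the low-App replicates the values for these 4 pairs were -0.634, 0.835, 0.623 and 0.750 over 11 libraries. Lrp8 with Mylip had r = 0.483 (rho = 0.489) and 0.181 without those replicates. These are descriptions of 28 pairs from the same libraries, which share depth and dissection.

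Among the genes around the receptors several ligands were lower, and none of the receptors' relatives passed. Of 8 further tested family members (Lrp1b, Lrp3, Lrp4, Lrp6, Lrp11, Lrp12, Ldlrad3 and Ldlrad4) none was called by limma, and their median change was -0.052. The single relative with an unadjusted p under 0.05 (1 of 8) was Lrp1b, a large neuronal relative of Lrp1, at 1.42 ± 0.175 RPKM (SD, n = 7) in APPPS1;Apoe-/- and 1.64 ± 0.1098 RPKM (SD, n = 6) in APPPS1 (log2 change -0.16, adjusted p = 0.167). Of 12 other tested receptor ligands, sortilin ligands such as progranulin among them, 4 were lower and 0 higher, where 4.74% of all genes tested were lower. Of these 12 ligands 7 had an unadjusted limma p under 0.05, in both directions, and the median change was -0.047. The list was chosen with earlier results of these data known, so this count is a description and no test of the ligands as a set. A2m, the protease trap alpha-2-macroglobulin and a ligand of Lrp1, had 0.763 ± 0.115 RPKM (SD, n = 7) in APPPS1;Apoe-/- libraries and 1.61 ± 0.288 RPKM (SD, n = 6) in APPPS1 libraries, with no overlap (log2 change -0.73, adjusted p = 3.20e-04). Lpl, lipoprotein lipase, had 4.72 ± 0.636 RPKM in APPPS1;Apoe-/- and 7.49 ± 1.496 RPKM in APPPS1 libraries (log2 change -0.60, adjusted p = 0.00390). The other 2, named after their values were seen, were Grn and Thbs2. Grn encodes progranulin, a ligand of sortilin, and had 40.6 ± 6.34 RPKM in APPPS1;Apoe-/- and 57.6 ± 4.67 RPKM in APPPS1 libraries, with no overlap (-0.51, adjusted p = 0.00391). Thbs2, a matrix glycoprotein cleared through Lrp1, had 1.04 ± 0.160 RPKM in APPPS1;Apoe-/- and 1.41 ± 0.197 RPKM in APPPS1 libraries (-0.30, adjusted p = 0.0415). Without replicates 2 and 5, A2m, Lpl and Grn remained lower (-0.66, -0.58 and -0.39) and Thbs2 did not pass (-0.28, adjusted p = 0.102). With the alignments covariate A2m alone passed (-0.83, adjusted p = 0.00340), with Lpl at -0.47 (adjusted p = 0.0906) and Grn at -0.45 (adjusted p = 0.0754). The lower microglia marker sums given above stand beside these values too, and their part was not tested.

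Of 18 genes for receptor folding, endocytosis and retrieval, 5 had an unadjusted limma p under 0.05, in both directions, and the median change was -0.0068. Over all genes tested 8.23% were called, and in this list only Dab2 was. It encodes an adaptor that binds the tails of these receptors and stood at 1.79 ± 0.173 RPKM (SD, n = 7) in APPPS1;Apoe-/- and 2.29 ± 0.123 RPKM (SD, n = 6) in APPPS1 libraries, which did not overlap. Its change was -0.28 (adjusted p = 0.0108), -0.25 without replicates 2 and 5 (adjusted p = 0.0434) and -0.23 with the alignments covariate (adjusted p = 0.152). Groups that did not overlap were found for 3.72% of all genes tested and for none of the 8 members.

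Mylip is an LXR target, and no gene passed in a separate list of LXR receptors and targets. Of 13 LXR receptors and targets none was called by limma, 1 had an unadjusted p under 0.05, and their median change was -0.016. The gene with that p was the sterol exporter gene Abcg1, at 37.4 ± 3.76 RPKM (SD, n = 7) in APPPS1;Apoe-/- and 32.5 ± 3.28 RPKM (SD, n = 6) in APPPS1 (log2 change 0.20, adjusted p = 0.107). Another exporter gene, Abca1, was at 1.62 ± 0.402 RPKM (SD, n = 7) in APPPS1;Apoe-/- and 1.65 ± 0.238 RPKM (SD, n = 6) in APPPS1 (95% interval of the log2 change -0.29 to 0.21). Both were named after their values were seen. Of 19 targets of the sterol factor SREBP2 only Insig1, which encodes the protein that holds this factor in the endoplasmic reticulum, was called, at 26.3 ± 4.001 RPKM in APPPS1;Apoe-/- and 32.0 ± 2.14 RPKM in APPPS1 libraries (-0.29, adjusted p = 0.0458). Of these 19 targets 7 had an unadjusted limma p under 0.05, and the median change was -0.12. Of 14 genes for proteases that shed receptors and their inhibitors, the gamma-secretase subunit gene Aph1b and the protease inhibitor gene Timp3 were higher. In that list 0 genes were called lower, 4 had an unadjusted limma p under 0.05, and the median change was -0.055. Over all genes tested 8.23% were called, 4.74% lower and 3.48% higher. Aph1b had 5.98 ± 0.435 RPKM in APPPS1;Apoe-/- and 5.09 ± 0.317 RPKM in APPPS1 libraries (0.21, adjusted p = 0.0315). Timp3 had 34.3 ± 3.43 RPKM in APPPS1;Apoe-/- and 29.2 ± 1.76 RPKM in APPPS1 libraries (0.23, adjusted p = 0.0417). Without replicates 2 and 5 the calls of Insig1, Aph1b and Timp3 ended (-0.20, 0.20 and 0.18, adjusted p = 0.143, 0.0940 and 0.111), as they did with the alignments covariate (adjusted p = 0.250, 0.255 and 0.122).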

How the data were processed

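Cortex RNA of 13 mice was sequenced, 1 library per mouse as the series' design counts them. The authors deposited RPKM values per gene in 1 table, with the number of alignments per library. Per the labels' protocols, Trizol was used for extraction from frozen tissue and a Clontech SMARTer kit for the libraries. The submitters' processing notes name Partek, and mm10 as the build. For the aligner, counting rule, strand use and annotation, nothing was given in the sources used here. Such values are scaled by library depth and gene length and carry no sampling error of their own.

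Libraries were grouped by the genotype label, which the table's own genotype column matched for 13 of 13, and replicates are numbered in accession order. Values were taken as log2(RPKM + 0.5). Genes averaging 0.5 RPKM or more were fitted with limma 3.58.1 in R 4.3.3 (eBayes with a mean-variance trend, genotype only, two-sided, Benjamini-Hochberg). Lists held 194 different genes, 192 of them in the table. The members and lists were chosen with earlier results of these data known. The text names the members, Apoe, App, Thy1, up to 2 called genes per list, the 3 genes most like a called member and markers. Alternatives were other pseudocounts, filters, scalings and covariates, and leaving libraries out; for the lists, the counts without replicates 2 and 5 and with the alignments covariate were added after the data were seen. The code was tested on simulated data. Python 3.11.15, pandas 2.3.3 and scipy 1.17.1 did the rest. From the Lrp2 step and GENCODE exon lengths, which may differ from the authors', Mylip rested on about 75 to 228 reads per APPPS1;Apoe-/- library and 175 to 523 per APPPS1 library, a counting error of at most 11.5%. The other tested members rested on at least 137 reads each.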

Additional observations from a re-analysis of the deposited data

Results flagged for a closer look

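Lpl, a ligand and lipase gene beside the receptors, was at 6.00 RPKM in APPPS1;Apoe-/- replicate 1, far from the 4.12 to 4.83 RPKM of the other 6 libraries of that group. This was the single case among 52 groups checked for 26 genes, and chance gives about 1 in 20.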

How the results depend on the processing

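Over 27 other settings Vldlr, Lrp1, Lrp8 and Lrp10 had a negative and Sorl1 a positive change in each, with no call. Lrpap1 turned to 0.0043 with median-of-ratios scaling and 0.010 with the alignments covariate; leaving out each library in turn gave -0.037 to 0.026 for Lrpap1 and -0.023 to 0.039 for Sort1, whose other settings kept its sign. Mylip had a negative change in all 27 and was called in 17. Its call ended with no filter on low values (-0.33, adjusted p = 0.0585), quantile normalization (-0.28, adjusted p = 0.0582), the alignments covariate (-0.23), without the low-App libraries (-0.25) and with both (-0.19, adjusted p = 0.362), so that limma called 0 members in each (unadjusted p of Mylip 0.00926 without the low-App libraries and 0.0865 with both). Without filter more genes were tested; otherwise the cause was not tested. Leaving out single libraries gave Mylip -0.39 to -0.29 (adjusted p = 0.00849 to 0.0719) and 0 to 1 called members; the call ended without APPPS1;Apoe-/- replicate 2 or 5 and without APPPS1 replicate 1, 4 or 6. All genes called numbered 1098, and 202 with the alignments covariate, 678 without the low-App libraries, 283 with both, 478 in female libraries alone and 699 to 1596 without single libraries, fewest without APPPS1 replicate 6. No paired analysis was possible because the labels give the groups no shared replicate numbers. Lrp2 missed the filter, so no change was fitted for it. Depth limits Lrp2 most and, among the tested members, Mylip and Lrp10.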
